A study of Homo sapiens with 5 samples.

Results

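HSP90 is an ATP-driven chaperone that completes the folding of kinases, steroid hormone receptors and other client proteins. It works as a dimer, and cochaperones deliver clients to it, set the pace of its ATPase cycle and help release the mature protein. HSF1, the main transcription factor of the heat shock response, binds heat shock elements, which are runs of GAA units in alternating orientation. MYC binds E-boxes together with MAX and occupies a large share of active promoters. Both factors were mapped in OVCAR8 cells, and the peaks at 10 genes of the HSP90 machinery are described here: HSP90AA1, HSP90AB1, HSP90B1, TRAP1, AHSA1, STIP1, FKBP4, PTGES3, CDC37 and CHORDC1. The genes were taken by name, out of 20033 protein-coding genes of GENCODE 44, and all peaks from 5 kb upstream of a gene to its end were assigned to it.

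The cells, an established line from a human ovarian carcinoma, were proliferating and had received no treatment. CUT&RUN uses an antibody to bring a nuclease to a protein on chromatin, and the released DNA fragments are sequenced. There were 2 libraries with an HSF1 antibody, 2 with a MYC antibody and 1 with control IgG, each from 500000 cells fixed with 1% formaldehyde for 1 minute. The same IgG library was the background of all 4 peak lists, and the labels do not say whether the replicates came from separate cultures. The antibody libraries held 8265647 to 10084407 fragments after filtering, and the IgG library held 9306942. The lists hold 6421 and 4459 HSF1 peaks in replicates 1 and 2, called at a p-value threshold of 1e-04, and 25623 and 13278 MYC peaks, called at 1e-10. The level used below is the fold enrichment over IgG at a peak summit, as the authors' peak caller gave it. Each factor has only 2 lists and no read counts were used, so no test was made, and every value is set beside the other replicate and beside all protein-coding genes. A missing peak means that none was called at that depth and threshold.

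HSF1 peaks were found in both replicates at 7 of the 10 genes, and in each of these genes the strongest HSF1 peak lay at the promoter. The 7 were the cytosolic chaperone genes HSP90AA1 and HSP90AB1 and the cochaperone genes AHSA1, STIP1, FKBP4, PTGES3 and CHORDC1. MYC peaks were found in both replicates at all 10. The sequences under these peaks are shown first because they mark where each factor could contact DNA. A heat shock element was searched as 3 GAA units, GAANNTTCNNGAA or its complement TTCNNGAANNTTC, over 13 bp. All sequences are GRCh38 reference sequence, written 5′ to 3′ on the strand of the gene, and positions are counted from the start site of its MANE Select transcript, the reference transcript agreed between annotation projects.

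Exact heat shock elements were present in the strongest HSF1 peak of 4 genes, HSP90AA1, HSP90AB1, STIP1 and CHORDC1. They are shown with capitals marking the elements.
HSP90AA1, chr14:102087090-102087162, minus strand: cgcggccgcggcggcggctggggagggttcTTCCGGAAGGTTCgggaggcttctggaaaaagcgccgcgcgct
CHORDC1, chr11:90223078-90223139, minus strand: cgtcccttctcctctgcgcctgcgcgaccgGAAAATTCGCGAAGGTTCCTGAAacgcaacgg
STIP1, chr11:64185825-64185897, plus strand: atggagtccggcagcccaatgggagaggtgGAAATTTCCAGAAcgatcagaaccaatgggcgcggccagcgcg
HSP90AB1, chr6:44247748-44247865, plus strand: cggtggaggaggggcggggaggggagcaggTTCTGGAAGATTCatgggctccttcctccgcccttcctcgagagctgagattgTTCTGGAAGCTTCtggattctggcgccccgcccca
The element of HSP90AA1 spans positions -88 to -76. On its 3′ side it is continued down to -61 by 3 overlapping matches, from -83 onward. Each has 1 differing base, which is the same base in all of them, at -71. CHORDC1 has 3 overlapping exact elements that form a run of 5 GAA units over 23 bp, from -60 to -38. In STIP1 the element shown lies at -316 to -304. The 2 elements of HSP90AB1 are in intron 1, at 677 to 689 and 730 to 742.

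The other 3 genes with HSF1 peaks in both replicates had no exact element in the strongest peak, only matches with 1 differing base. In FKBP4, PTGES3 and AHSA1 these are shown with capitals marking the 13 bases of the match.
FKBP4, chr12:2794833-2794905, plus strand: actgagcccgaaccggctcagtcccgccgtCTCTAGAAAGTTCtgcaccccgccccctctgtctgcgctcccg
FKBP4, chr12:2794613-2794685, plus strand: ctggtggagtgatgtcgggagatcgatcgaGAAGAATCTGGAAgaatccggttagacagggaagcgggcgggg
PTGES3, chr12:56688409-56688454, minus strand: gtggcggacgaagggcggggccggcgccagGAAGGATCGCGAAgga
AHSA1, chr14:77458089-77458101, plus strand: TTCTAGTAGTTTC
With positions counted from 1 at the 5′ end of the 13 bases and the element's base given first, the differences are T1C in the match of FKBP4 nearer to its start site, T6A in the one farther upstream, T6A in PTGES3 and A7T in AHSA1. The match of AHSA1 runs across the start site, from -4 to 8.

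For MYC, the E-box CACGTG was in the strongest peak of at least 1 replicate in 7 genes, all but AHSA1, FKBP4 and PTGES3. The E-boxes of CDC37, HSP90AA1 and STIP1 are shown with capitals. In STIP1 the capitals after the E-box mark another exact heat shock element.
CDC37, chr19:10419925-10420046, minus strand: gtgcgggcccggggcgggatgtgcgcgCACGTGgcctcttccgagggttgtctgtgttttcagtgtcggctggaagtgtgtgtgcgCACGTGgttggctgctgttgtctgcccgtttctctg
HSP90AA1, chr14:102088528-102088593, minus strand: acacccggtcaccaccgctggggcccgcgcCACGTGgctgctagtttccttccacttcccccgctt
STIP1, chr11:64185417-64185439, plus strand: CACGTGgcatTTCCGGAACATTC
In STIP1 the E-box and the element are separated by 4 bases, at -754 to -732. Both lie inside the MYC peak of each replicate and inside the HSF1 peak of replicate 2, while the HSF1 peak of replicate 1 starts just downstream, at chr11:64185446.

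**Figure D1:**
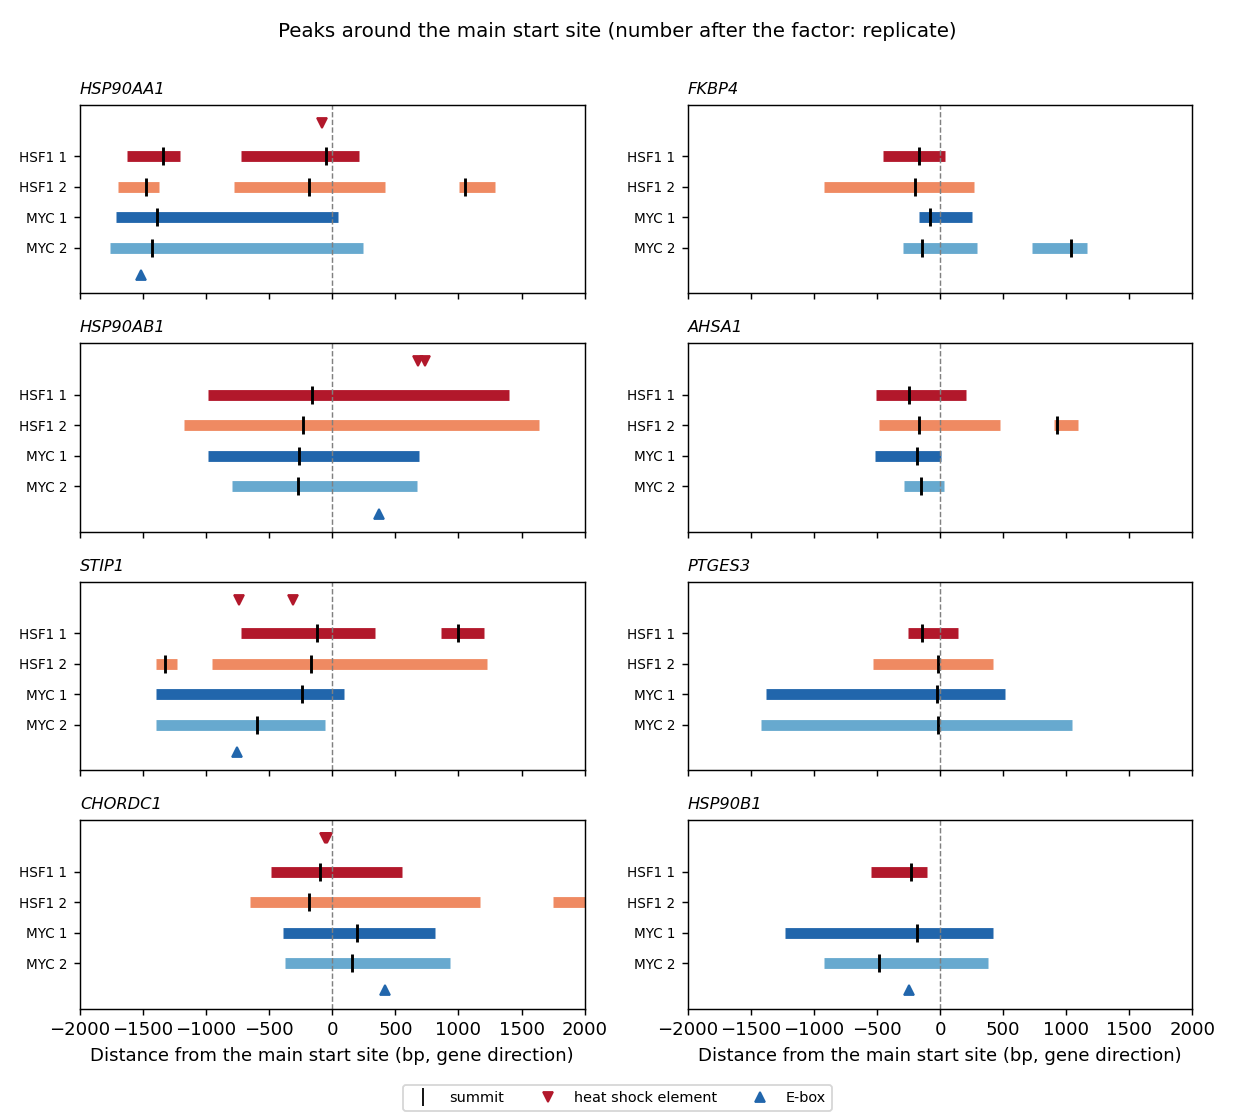
Peaks of 8 of the 10 genes within 2000 bp of the main start site (x axis, bp in the direction of the gene), 1 row per library. Bars are peaks and black ticks their summits, red triangles are exact heat shock elements and blue triangles are E-boxes CACGTG in the strongest peaks. The MYC summits of HSP90AA1 lie more than 1 kb upstream of its strongest HSF1 summits although the peaks overlap.

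HSP90AA1 encodes the stress-inducible cytosolic isoform of HSP90. Its strongest HSF1 peak reached 27.2-fold in replicate 1 and 59.4-fold in replicate 2 (mean 43.3 ± 22.8, SD, n = 2), at chr14:102086835-102087770 and chr14:102086627-102087823. The summits lay 46 and 185 bp upstream of the start site, with the exact element 36 and 103 bp away. By mean fold enrichment HSP90AA1 ranked 12 among the 1564 genes with an HSF1 peak in both replicates.

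MYC was placed differently at this gene. The MYC peak of replicate 1 spanned 1765 bp, reached 33.1-fold and had its summit 1388 bp upstream of the start site, with the E-box 128 bp from it. In replicate 2 the matching peak reached 20.2-fold with its summit 1428 bp upstream. It also spanned this E-box, which lies at positions -1519 to -1514. Both peaks extended over the start site, so each overlapped the strongest HSF1 peak, but the HSF1 and MYC summits were 1342 bp apart in replicate 1 and 1243 bp apart in replicate 2. A smaller HSF1 peak, of 8.18-fold and 4.13-fold, lay 43 and 50 bp from the MYC summit. HSP90AA1 also has an annotated start 52655 bp upstream, next to the start of WDR20 on the other strand. MYC peaks there reached 27.0-fold and 21.9-fold, the latter the strongest MYC peak of the gene in replicate 2, and cannot be told apart from binding at WDR20. No HSF1 peak was called there in either list.

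HSP90AB1 encodes the constitutive cytosolic isoform. Its HSF1 peak reached 22.9-fold in replicate 1 and 35.7-fold in replicate 2, and its MYC peak 25.5-fold and 20.7-fold. The HSF1 peaks were the longest of the 10 genes, at 2387 and 2815 bp, and ran from upstream of the start site into intron 1, where both heat shock elements lie. The HSF1 summits lay 110 and 37 bp from the MYC summits, whereas the nearest exact element was 840 and 916 bp from the HSF1 summits. The E-box of this gene is in intron 1 as well, 638 and 642 bp from the MYC summits. Thus both HSF1 and MYC summits were upstream of the start site, and the exact motifs were downstream of it.

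HSP90B1 encodes the isoform of the endoplasmic reticulum and TRAP1 that of mitochondria. HSP90B1 had an HSF1 peak of 6.02-fold in replicate 1, 442 bp long and at the promoter, and none in replicate 2. Its MYC peak reached 33.1-fold in replicate 1 and 9.37-fold in replicate 2, a ratio of 0.283 between the replicates and the widest MYC difference among the 10 genes. The E-box of HSP90B1 (CACGTG, chr12:103930162-103930167) lay 66 bp from the MYC summit in replicate 1 and 238 bp from it in replicate 2. At TRAP1 the HSF1 peak of replicate 1 reached 4.22-fold over 187 bp in intron 11, far from the promoter, and replicate 2 had none. MYC peaks covered the start of TRAP1, with 17.9-fold and 26.1-fold. HSF1 was thus called in both replicates at the genes of both cytosolic isoforms and at neither gene of the organelle isoforms, while MYC was called in both replicates at all 4.

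Among the cochaperones, STIP1 bridges HSP70 and HSP90 during client transfer. Its HSF1 peak reached 20.2-fold and 36.0-fold, with pileups of 161 and 187 fragments, the highest HSF1 pileups of the 10 genes. The summits lay 123 and 169 bp upstream of the start site, and the element at -316 was 187 and 141 bp from them. MYC peaks of 16.5-fold and 13.1-fold had summits 119 and 428 bp from the HSF1 summits. A lncRNA start lay nearer to each of these MYC summits (213 and 142 bp) than the STIP1 start sites did, so the signal cannot be assigned to STIP1 alone.

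CDC37 brings kinases to HSP90, and it had the highest MYC levels of the 10 genes and no reproducible HSF1 peak. Its strongest MYC peak reached 48.1-fold and 32.0-fold (mean 40.1 ± 11.4, SD, n = 2), rank 68 of the 9103 genes with a MYC peak in both replicates. That peak lay at the start of the most upstream CDC37 transcript, 16579 bp from the MANE Select start, and held both E-boxes shown above, the nearer of them 74 and 60 bp from the summit. At the MANE Select start, MYC peaks reached 12.6-fold and 15.8-fold. The HSF1 peaks of replicate 1, of 3.44-fold, 4.12-fold and 3.75-fold, were weak, and the 4.12-fold peak lay 55 bp from the start of PDE4A, a neighbouring gene.

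AHSA1 stimulates the ATPase of HSP90, and PTGES3 holds the chaperone in its closed, ATP-bound state. HSF1 reached 10.5-fold and 23.6-fold at AHSA1, and 7.0-fold and 14.7-fold at PTGES3, the lowest levels among the 7 genes. AHSA1 shares a promoter with VIPAS39, whose start was the nearest protein-coding start to the HSF1 summit in replicate 2 (29 bp) and to the MYC summit in replicate 2 (7 bp), so the signal there cannot be assigned to AHSA1 alone. MYC reached 16.1-fold and 10.2-fold at AHSA1. At PTGES3 the promoter peak of MYC reached 18.0-fold in replicate 1 and 8.81-fold in replicate 2, where a peak in intron 1 was slightly stronger at 9.16-fold. The near match of PTGES3 was 7 bp from the HSF1 summit of replicate 1, and the HSF1 and MYC summits of its promoter were 116 and 1 bp apart.

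FKBP4 encodes a peptidyl-prolyl isomerase that acts with HSP90 on steroid hormone receptors. It had the highest HSF1 levels of the 10 genes, 28.4-fold in replicate 1 and 79.5-fold in replicate 2 (mean 53.9 ± 36.2, SD, n = 2), rank 5 of 1564. Its MYC level was the lowest of the 10 genes by mean, with 9.43-fold and 11.5-fold, rank 7795 of 9103. The strongest MYC peaks of FKBP4 were 421 and 589 bp long, beside medians of 460 and 451 bp over all MYC peaks. Their summits lay 85 and 55 bp from those of HSF1. No exact heat shock element and no E-box CACGTG was found in its strongest peaks.

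CHORDC1 encodes a zinc-binding HSP90 partner. HSF1 reached 20.6-fold and 54.0-fold there, and MYC 13.7-fold and 13.3-fold, the closest pair of MYC values among the 10 genes. The run of 5 GAA units lay upstream of the start site, its nearest element 45 bp from the HSF1 summit in replicate 1 and 128 bp from it in replicate 2. The MYC summits were downstream, 296 and 337 bp from the HSF1 summits, in intron 1 and exon 1.

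**Figure D2:**
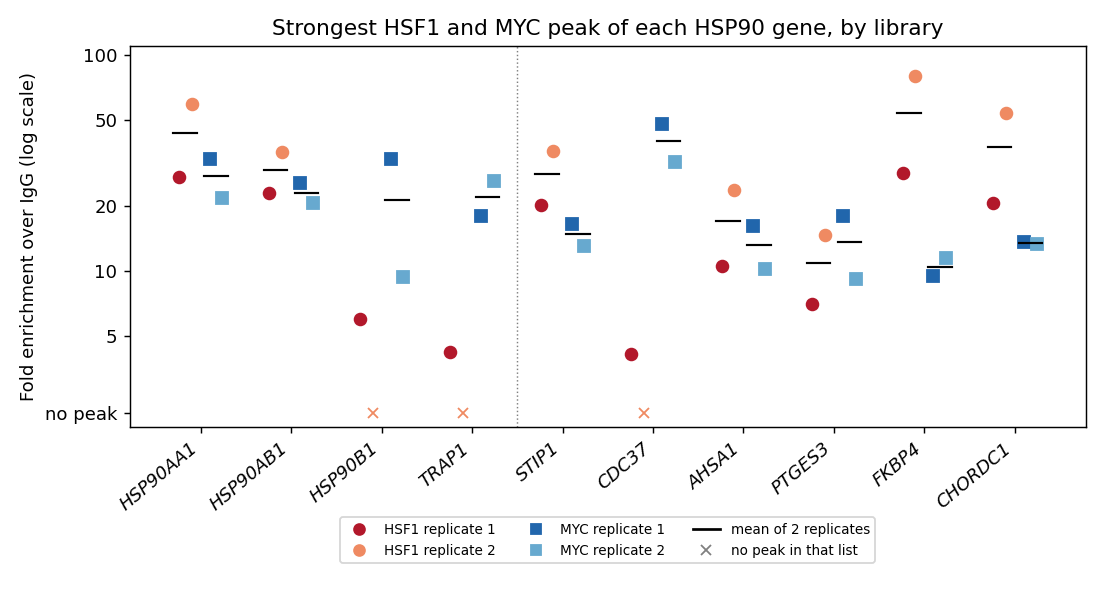
Fold enrichment over IgG (y axis, log scale) of the strongest HSF1 (circles) and MYC (squares) peak of each gene in each library, with HSP90 isoforms left of the dotted line and cochaperones right of it. Black lines are means of 2 replicates and crosses mark lists with no peak. HSF1 replicate 2 lies above replicate 1 at all 7 genes with both.

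HSF1 levels were higher in replicate 2 at 7 of the 7 genes, with a median ratio of 2.18 between the replicates. Over all 1564 genes with HSF1 peaks in both replicates the ratio was 1.05, and 55.2% were higher in replicate 2. Strong peaks as a class leaned the same way: among the 287 genes at or above the lowest mean of the 7, the median ratio was 1.40 and 75.3% were higher in replicate 2. For MYC, replicate 2 was the higher at 2 of 10 genes (TRAP1 and FKBP4), with a median ratio of 0.727 against 0.715 over 9103 genes. In both factors the replicate ranges of neighbouring genes in the order overlapped throughout. Within the lists, however, the HSF1 order was similar. FKBP4, HSP90AA1, AHSA1 and PTGES3 held places 1, 2, 6 and 7 in each replicate, while CHORDC1, HSP90AB1 and STIP1 changed places. The MYC order was looser. CDC37, HSP90AB1 and AHSA1 kept places 1, 4 and 8, but HSP90B1 was at place 3 in replicate 1 and 9 in replicate 2.

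Set against all protein-coding genes, the HSP90 machinery had a higher share of genes with peaks of either factor, and of peaks of both. The 10 genes and the other gene lists were chosen with earlier results of these data known, so the shares below are descriptive only. An HSF1 peak in both replicates was found at 7 of 10 genes (70%), beside 7.81% of all protein-coding genes. For MYC the count was 10 of 10, beside 45.4%, and for overlapping HSF1 and MYC peaks in both replicates it was 7 of 10, beside 4.20%. With promoters only, taken as 1000 bp upstream to 100 bp downstream of any annotated start, the counts were again 7, 10 and 7, beside 3.10%, 38.5% and 2.39%. The median level of the 7 HSF1 genes was 29.3-fold, beside 6.38-fold over 1564 genes. The median level of MYC over the 10 genes was 18.0-fold, beside 14.8-fold over 9103 genes. Every one of the 7 genes with reproducible HSF1 peaks also had a MYC peak overlapping it in both replicates, beside 841 of the 1564 protein-coding genes with such HSF1 peaks (53.8%). With promoters only it was 7 of 7 genes, beside 479 of 622. In the related gene sets described below, such overlap was also frequent among genes with HSF1 peaks in both replicates. It was found at 4 of 4 other HSP90 pathway genes, 8 of 9 HSP70 and HSP110 genes and 8 of 9 chaperonin genes. In the overlaps of the 7 genes, the HSF1 and MYC summits were a median of 116 bp apart in replicate 1 and 55 bp in replicate 2. This was close to the 89 and 73 bp over those of the 841 genes whose strongest HSF1 peak overlapped a MYC peak (n = 779 and 727).

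**Figure D3:**
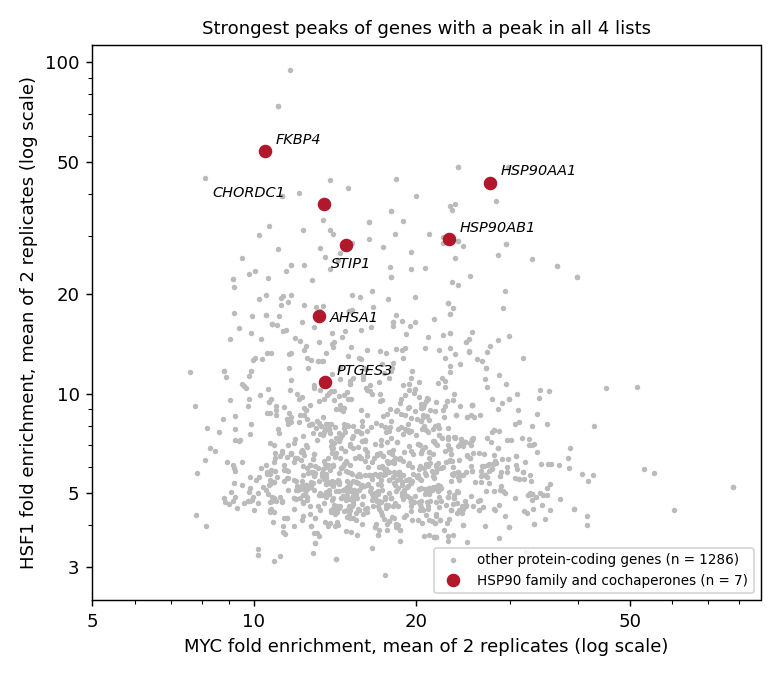
Mean fold enrichment of the strongest HSF1 peak (y axis) against that of MYC (x axis), both on log scales, for the 1293 protein-coding genes with a peak in all 4 lists. The 7 genes of the HSP90 machinery (red) lie between 10.8-fold and 53.9-fold for HSF1, in the upper part of the HSF1 range, and are spread along the MYC axis.

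Exact heat shock elements lay wholly within 100 bp of the strongest HSF1 summit in 2 of the 10 genes, HSP90AA1 and CHORDC1, both through the summits of replicate 1. With the summits of replicate 2 there was none. Among all HSF1 peaks, 6.51% in replicate 1 and 5.97% in replicate 2 held an element at that distance, and 0.220% of 19061 protein-coding promoters did within 100 bp of the start. Over the whole peak the count rose to 4 genes, beside 10.2% and 13.6% of all HSF1 peaks in replicates 1 and 2. Of HSF1 peaks of 1000 bp or more, 52.0% and 49.6% held an element. The strongest peaks of the 7 genes in replicate 2 were 952 to 2815 bp long. Those of the 10 genes in replicate 1 were 187 to 2387 bp long, and only those of HSP90AB1, STIP1 and CHORDC1 exceeded 1000 bp. If 1 of the 9 fixed bases could differ, FKBP4 and PTGES3 also had a match within 100 bp of the summit of replicate 1, making 4 genes, beside 17.4% of all HSF1 summits of that replicate. With the summits of replicate 2 there was again none, 0 of 7 genes, beside 17.2%. The matches of FKBP4 and HSP90AA1 only just missed there. They were centred 98 and 99 bp from the summit and so did not lie wholly within 100 bp. Those of the other genes were centred 119 to 412 bp away.

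E-boxes CACGTG lay within 100 bp of the strongest MYC summit in HSP90B1 (replicate 1) and CDC37 (both replicates), so in 2 of 10 genes. In replicate 2 the strongest MYC peak of HSP90AA1 was the one next to WDR20, so the E-box in its promoter peak was not counted there. The share among all MYC peaks was 6.74% and 6.82%, and 5.67% of promoters held an E-box within 100 bp of the start. In whole peaks 7 of 10 genes had an E-box, beside 18.5% and 21.3% of all MYC peaks and 46.4% and 52.5% of those of 1000 bp or more. Exact heat shock elements were uncommon under MYC, in 0.734% and 0.783% of MYC peaks. Of MYC peaks of 1000 bp or more, 1.69% and 1.96% held one. Here, the strongest MYC peaks of STIP1 and CHORDC1, all longer than 1000 bp, held them in both replicates. That of HSP90AA1 did in replicate 1, and its promoter MYC peak of replicate 2, not the strongest there, also spanned the element. A match is a description of the sequence, and the letters searched do not cover every form of either motif.

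In the wider HSP90 pathway a smaller share of genes had HSF1 peaks. Of 28 other genes of this pathway, among them further cochaperones and the R2TP and TTT assembly factors, 4 had an HSF1 peak in both replicates (14.3%) and 20 a MYC peak in both (71.4%). The shares over all protein-coding genes were 7.81% and 45.4%. The 4 were NUDC, PPID, RUVBL2 and SUGT1, and MYC peaks overlapped HSF1 peaks in both replicates at all of them. NUDC, a cochaperone in nuclear migration, reached 11.3-fold and 15.6-fold for HSF1. PPID, a cyclophilin that binds HSP90 as FKBP4 does, reached 5.62-fold and 16.9-fold. RUVBL2, an ATPase of the R2TP complex, had 10.6-fold and 8.04-fold, and SUGT1, which links HSP90 to immune receptors and kinetochores, 5.00-fold and 7.78-fold. Their median HSF1 level was 10.3-fold, below the 29.3-fold of the 7 genes above. Another 10 genes, among them CNPY3, PPP5C, SGTA, STUB1 and TELO2, had MYC peaks in both replicates and no HSF1 peak in either. That is 35.7% of the list, near the 29.2% of all protein-coding genes. TELO2, of the TTT complex, had the highest MYC level of the pathway list at 50.8-fold and 37.2-fold. No MYC peak was called in either replicate at AIPL1, FKBP8, ITGB1BP2 and UNC45B (14.3% of the list, beside 35.9% of all protein-coding genes). The median MYC level over the 20 genes was 18.3-fold, near the 18.0-fold of the 10 genes.

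HSF1 peaks were also frequent in other chaperone classes. Of 16 HSP70 and HSP110 genes, 9 had HSF1 peaks in both replicates, 14 had MYC peaks and 8 had both overlapping. Among 10 chaperonin genes the counts were 9, 10 and 8. Their median HSF1 levels were 11.7-fold and 15.2-fold, and HSF1 replicate 2 was again higher at 9 of 9 HSP70 and HSP110 genes and at 7 of 9 chaperonin genes. Some genes of these classes share a promoter peak, so their counts are not independent.

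**Figure D4:**
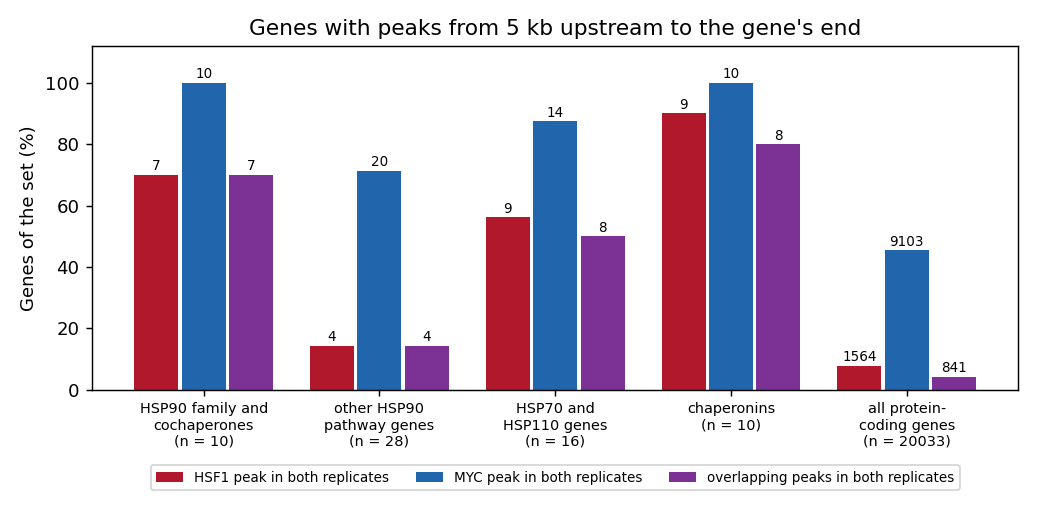
Percent of genes (y axis) with an HSF1 peak in both replicates, a MYC peak in both, and overlapping peaks in both, for each gene set (x axis, number of genes in brackets). Numbers above bars are gene counts. HSF1 bars are 70% for the HSP90 family and cochaperones, 14.3% for other HSP90 pathway genes and 7.81% for all protein-coding genes. They are 56.2% for HSP70 and HSP110 genes and 90.0% for chaperonins.

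Outside the chaperone and pathway lists, the genes whose pattern over the 4 lists was most like that of FKBP4 were LRIF1, PWWP3A and FBXO15. Likeness was the Euclidean distance over log2 fold enrichments of the strongest peaks, 0.84, 1.14 and 1.18 respectively. The comparison took in 1265 of the 1293 genes with a peak in all 4 lists, after the 28 listed genes were left out by rule. Among those listed genes CHORDC1 was the nearest to FKBP4, at 0.92, nearer than PWWP3A and FBXO15. LRIF1 had HSF1 levels of 33.6-fold and 55.7-fold and MYC levels of 8.64-fold and 7.55-fold.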

How the data were processed

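The authors trimmed reads, aligned them to GRCh38/hg38 with Bowtie2 and called peaks per library with MACS2, version 2.2.9.1 per the file headers, against 1 IgG library, without pooling replicates. Duplicate fragments were kept once and the larger library was scaled to the smaller. The deposited lists give, per peak, a ratio of fragments at the summit to the IgG level (the fold enrichment), the pileup (a signal of fragments there) and the −log10 p-value. The q-value column was not used. The headers number the IgG library as replicate 2, which the labels do not. Expression data of the study were not analysed here.

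Peaks on chromosomes 1 to 22, X and Y were assigned with GENCODE 44 gene models in Python 3.11.15 (pandas 2.3.3, numpy 2.4.6) and sequences were read with pysam 0.24.0 from GRCh38, in which 0 peaks end past their chromosome. Figures used matplotlib 3.10.9. A gene was counted where a peak shared 1 bp with the interval from 5 kb upstream to its end in both replicates, and overlap needed 1 bp between HSF1 and MYC peaks of the same replicate number. The level of a gene is its strongest peak per list. No test was made, and precision is the difference between the 2 lists of a factor. The assignment and overlap step was tested on simulated data with 200 genes planted, recovered in 20 of 20 runs. The planted genes had windows apart from those of other protein-coding genes, so windows that overlap a neighbour were not tested. The members and lists were chosen with earlier results of these data known. Named genes are the 10 members, those of the 28 pathway genes with HSF1 peaks in both lists, neighbours with a nearer start, and the 3 genes outside the lists most like FKBP4. The pathway genes with MYC peaks only or none were named as groups after their values were seen. Alternatives covered replicates, thresholds, windows, assignment, overlap, motif and the value that ranks peaks.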

Additional observations from a re-analysis of the deposited data

How the results depend on the processing

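The counts of the 10 genes with HSF1, MYC or overlapping peaks ran from 7 to 10, 9 to 10 and 5 to 9 over the alternatives. They stayed within 1.5 times, but with 10 genes in all no looser setting could have raised them beyond that. The shares of all protein-coding genes ran from 2.83% to 21.1%, 32.9% to 64.1% and 1.44% to 16.0%. With a peak in either replicate, the counts of 10, 10 and 9 stood beside 21.1%, 64.1% and 16.0%. For the 28 other pathway genes, HSF1 counts rose from 4 to 12 with a peak in either replicate, beside 21.1% of all genes, and were 5 to 11 with 1 HSF1 replicate left out, beside 12.3% to 16.5%. Their overlap counts, 4 at first, were 9 with a peak in either replicate (16.0% of all genes), 2 with summits within 200 bp, 2 with at least 50% of the HSF1 peak covered, and 3 to 7 with 1 replicate left out. Genes with a heat shock element near the HSF1 summit went from 2 to 4 over the whole peak, to 4 with 1 differing base, and ranged from 0 to 2 by replicate. Those with an E-box near the MYC summit went from 2 to 7 over the whole peak, to 6 with any E-box (CANNTG), and from 1 to 2 by replicate. The median HSF1 level was 15.4 without HSF1 replicate 2, which then includes the 3 genes called in replicate 1 alone, and 36.0 without HSF1 replicate 1. The median MYC level was 13.2 without MYC replicate 1 and 18.0 without MYC replicate 2. Of 62 recomputed counts and medians, 48 stayed within 1.5 times for counts or 1 SD of the replicates for medians. The 48 include the peak counts of the 10 genes under looser settings, which could not have moved further. Levels of single genes were recomputed too, but with 2 replicates a single one always lies within 1 SD of their mean. No paired analysis was possible because no result comes from a test. The strongest HSF1 peaks of HSP90B1, TRAP1 and CDC37, called in replicate 1 alone, had pileups of 18, 6 and 12 fragments, and the part of depth in these calls was not tested.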

Other observations

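Apart from their strongest peaks, several of these genes had secondary HSF1 peaks. In all, 15 HSF1 peaks were called at 10 genes in replicate 1 and 13 at 7 genes in replicate 2. The peak upstream of HSP90AA1, with its summit 1345 bp from the start site in replicate 1 and 1478 bp in replicate 2, was called separately in both lists. CHORDC1 had peaks of 7.21-fold and 4.99-fold in intron 1 in replicate 2, and AHSA1 a peak of 4.17-fold in intron 1 in replicate 2. STIP1 had a peak of 4.53-fold in replicate 2, with its summit at position -1325. In replicate 1 it had a peak of 4.20-fold in intron 1, a stretch that its long peak of replicate 2 also covered. Peaks with summits in exons reached 4.13-fold in exon 3 of HSP90AA1 (replicate 2) and 4.33-fold in exon 12 of HSP90AB1 (replicate 1). GENCODE 44 lists 5 processed pseudogenes named for HSP90AA1 and 6 for HSP90AB1, and reads from such exons may be shared with these copies, which was not tested.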
